A study of Homo sapiens with 23 samples.

Results

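Ligands and receptors of the tumor necrosis factor (TNF) family were followed through the transformation of MCF10A-ER-Src cells, with and without STAT3. The 10 genes were chosen by name out of 19775 genes on the array. They are the ligands TNF, TNFSF10 and TNFSF15, the death receptors TNFRSF1A, FAS, TNFRSF10B and TNFRSF21, and CD40, TNFRSF9 and TNFRSF12A, which are receptors without a death domain. The array holds 26 probe sets that its annotation gives to just 1 of these genes, and each gene is represented by its main probe set, the one whose log2 signal averaged highest over the 23 arrays.

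MCF10A-ER-Src is a line of non-transformed human mammary epithelial cells that carry a fusion of the Src oncoprotein, a tyrosine kinase, with part of the estrogen receptor. Tamoxifen (TAM, 1 µM 4-hydroxytamoxifen) binds that part and switches the kinase on. Ethanol (EtOH) was the vehicle, and every culture, controls included, held the fusion protein and 25 nM of an siRNA pool, either against STAT3 (siSTAT3) or non-targeting (siNEG). The 8 groups were siSTAT3 TAM, siSTAT3 EtOH, siNEG TAM and siNEG EtOH cells at 24 h and the same 4 at 4 h, with 3 arrays in each group except siSTAT3 TAM 24 h, where 2 arrays were analysed. The methods speak of biological replicates, but no label says that the arrays came from separate cultures, so the p-values measure the spread between these arrays, and all cells came from 1 line.

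TNF family ligands are made as membrane proteins that act on a neighbouring cell or are shed by proteases, and they bind receptors as trimers. Death receptors carry a cytoplasmic death domain through which adaptors such as FADD and TRADD recruit caspases or kinases, while the other receptors bind TRAF adaptors directly. Both kinds can activate NF-κB, and in epithelial cells the outcome of receptor engagement ranges from inflammatory gene expression to apoptosis or necroptosis. RNA was measured here, and not the proteins on the cell surface.

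The siRNA target was low in every siSTAT3 library. STAT3 had 298 to 495 signal units on the 11 siSTAT3 arrays and 3914 to 6753 units on the 12 siNEG arrays, where a unit is that of the MAS5 signal, scaled to 1 trimmed mean on every array. Between pairs of arrays within a group the mean absolute difference was 0.160 to 0.233 on the log2 scale (24944 probe sets), and no pair of arrays held identical values. Markers of basal epithelium (KRT5, KRT14 and ITGB4) and of luminal epithelium (KRT8, KRT18, EPCAM, GATA3 and ESR1) were above 100 units. So were CD14 and ITGAM of 5 leukocyte markers (542 to 1183 units summed, over the arrays), PECAM1 of 4 endothelial markers (210.2 to 533 units summed) and DCN of 4 fibroblast markers. PTPRC, COL3A1, LUM, CDH5 and VWF stayed below 100 units. The fibroblast sum, nearly all DCN, moved with siRNA, treatment and time. The sum at 24 h was 1954 to 1963 units in siSTAT3 TAM, 2329 to 2384 in siSTAT3 EtOH, 6409 to 7422 in siNEG TAM and 5226 to 5418 in siNEG EtOH cells, and at 4 h 1548 to 1967 units in siSTAT3 and 2487 to 3169 units in siNEG cells. The luminal sum was 22074 to 24375 units in siNEG TAM cells at 24 h and 28336 to 40331 units in the other groups. At 4 h the leukocyte sum was 542 to 654 units in siSTAT3 and 835 to 931 units in siNEG cells. The basal sum at 24 h was 26319 to 32550 units in siSTAT3 and 33946 to 40643 units in siNEG cells. At 4 h it was 26067 to 28946 units in siSTAT3 and 30354 to 40517 units in siNEG cells. The part of these sums in the results was not tested. The 3′ to 5′ ratio of ACTB, a sign of RNA quality, ranged from 1.21 to 1.44 over all arrays and was lowest, at 1.21, in both arrays of siSTAT3 TAM cells at 24 h and in 1 array of such cells at 4 h. Its part in the results for those groups was not tested.

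Promoter sequence was examined because STAT3 and NF-κB act through short DNA motifs. RefSeq (GRCh38.p14) windows from 250 bases before to 50 bases after a gene start were at hand for 7 of the 10 genes (TNF, TNFSF10, TNFSF15, TNFRSF1A, FAS, TNFRSF21 and TNFRSF9), 9 windows in all, and were searched on both strands for the STAT motif TTCNNNGAA and the NF-κB motifs of GGG, NN and TTTCC and of GGG, NN and TTCCC written without a break, none of which overlapped another. The only matches were those of FAS and TNFRSF9, shown with 8 bases on either side and the motif in capitals. The FAS site lies 216 bases before a start (chr10:88990574-88990599, plus strand), and the TNFRSF9 sites lie 187 bases (chr1:7941010-7941034, minus strand) and 74 bases (chr1:7940896-7940921, minus strand) before its start.
FAS NF-κB motif: cccaacccGGGCGTTCCCcagcgagg
TNFRSF9 STAT motif: agagctgcTTCCAAGAAgcaatttg
TNFRSF9 NF-κB motif: gctgtggtGGGAATTTCCcatgagac
Of 35116 such windows of all genes, 7.66% held the STAT motif, 1.91% and 2.17% the NF-κB motifs in the order given above, and 3.88% either NF-κB motif. A match is a description of these letters and not a binding site, and the windows of the other 5 genes say nothing of sites elsewhere.

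With TAM at 24 h, TNF and TNFRSF12A rose in siSTAT3 cells, and TNFSF10, TNFRSF1A and TNFRSF21 rose in siNEG cells. No fall with TAM was called for any of the 10 genes at either time. In RNA of whole cultures, fewer cells with a transcript and less of it per cell cannot be told apart. A gene is called here when the adjusted p of its main probe set (limma, Benjamini-Hochberg over all 54675 probe sets, two-sided) was under 0.05, and the same rule called 1.87% of all probe sets in siSTAT3 cells and 11.3% in siNEG cells. Among main probe sets of the 11656 genes that reached a mean of 100 units in a group, those shares were 4.49% in siSTAT3 cells and 24.8% in siNEG cells, so 3 of 10 called in siNEG cells was close to the background. At 4 h the only gene called was TNFSF10, which rose in both, where 0.582% of all probe sets were called in siSTAT3 cells and 2.35% in siNEG cells. Among the genes over 100 units those shares at 4 h were 1.33% and 5.28%.

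The difference between the TAM effects was tested as an interaction, which is the effect under siSTAT3 less the one under siNEG. At 24 h it was called for TNF and TNFRSF12A, with a positive sign, and for TNFRSF21, with a negative sign, against 4.06% of all probe sets and 9.69% of the genes over 100 units. The median interaction at 24 h was 0.16 over the 10 genes and 0.06 over those 11656 genes, on the log2 scale. No gene of the 10 was called in the interaction at 4 h by limma, with 2 at an unadjusted p under 0.05. The shares called there were 0.399% of all probe sets and 0.858% of the genes over 100 units.

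**Figure D1:**
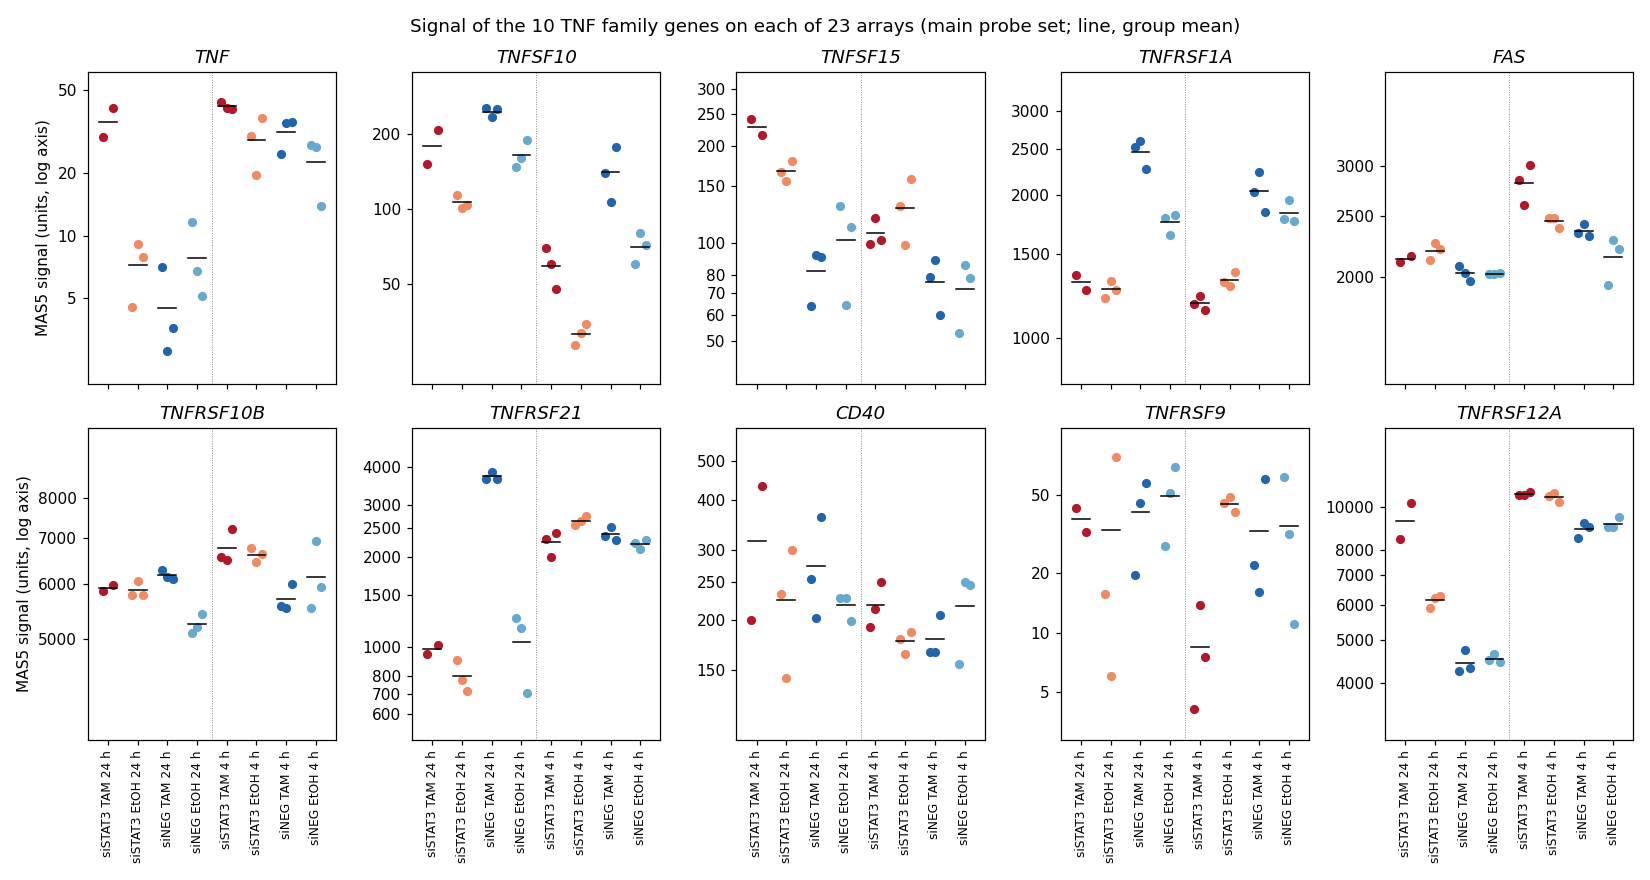
Signal of the main probe set (MAS5 units, log axis) on each of the 23 arrays for the 10 genes, in 8 groups with the 24 h groups on the left of the dotted line, points for arrays and bars for group means. TNFRSF21 stands out in siNEG TAM cells at 24 h (3653 to 3877 units), TNFRSF1A lies lower on every siSTAT3 array, and TNFRSF12A is higher in siSTAT3 than in siNEG cells at each time.

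**Figure D2:**
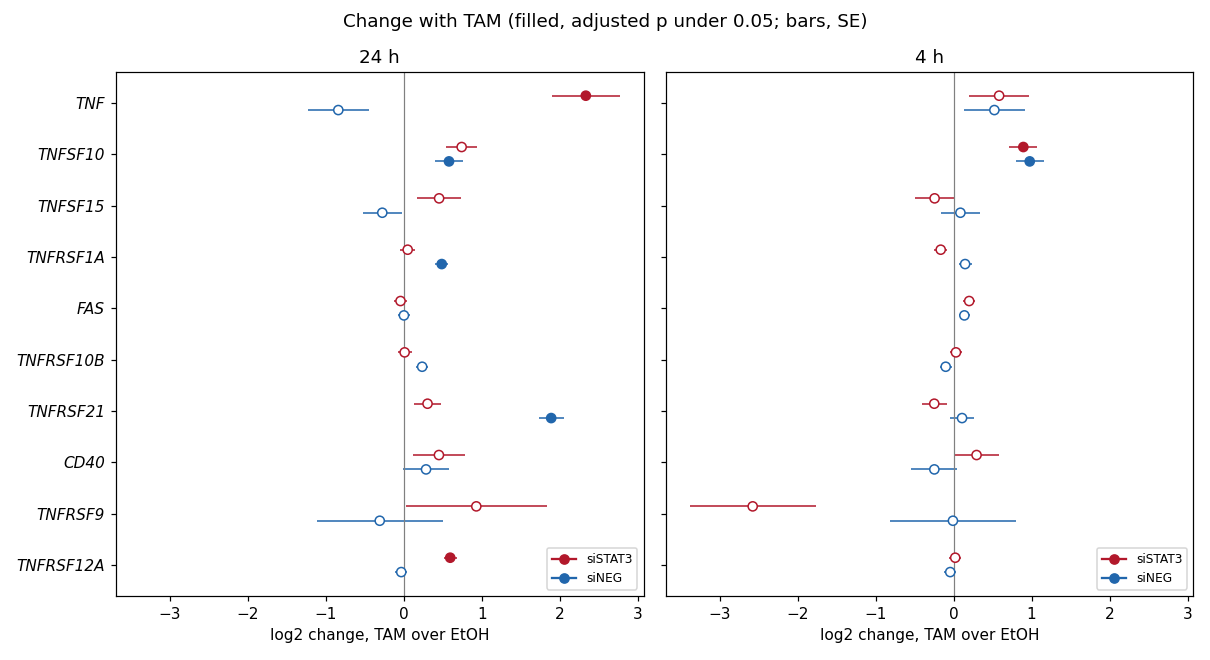
Log2 change of TAM over EtOH with its SE for the 10 genes in siSTAT3 and siNEG cells, at 24 h on the left and 4 h on the right, filled where the adjusted p was under 0.05. At 24 h TNF and TNFRSF12A are filled in siSTAT3 cells and TNFSF10, TNFRSF1A and TNFRSF21 in siNEG cells.

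Among the ligands, TNF itself, the founding cytokine of the family, was called with TAM at 24 h in siSTAT3 cells alone, at low signal. Its single probe set (207113_s_at, gene at chr6:31575565-31578336 in GRCh38.p14) read 29.7 and 40.8 units in siSTAT3 TAM cells and 4.55, 9.12 and 7.92 units in siSTAT3 EtOH cells at 24 h. In siNEG cells at 24 h it read 7.05, 2.78 and 3.58 units with TAM and 11.6, 6.76 and 5.10 units with EtOH. Both siSTAT3 TAM arrays thus lay above every other array of that time.

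The TAM effect on TNF at 24 h was 5.04-fold in siSTAT3 cells (log2 change 2.33, SE 0.43, adjusted p = 0.00788) and did not pass in siNEG cells (log2 change -0.84, SE 0.39, adjusted p = 0.211). The interaction was called (log2 3.17, SE 0.58, adjusted p = 0.00316), as was siSTAT3 against siNEG under TAM (log2 3.08, adjusted p = 8.39e-05). All TNF signals were below 100 units, where small differences give large ratios, and with 32 units added to each value before the logarithm the TAM effect in siSTAT3 cells was 0.78 (adjusted p = 0.00298) and the interaction 0.90 (adjusted p = 0.00461) on the log2 scale. Without siSTAT3 TAM 24 h replicate 3, which left 1 array in that group, the TAM effect was 2.10 and no longer passed (adjusted p = 0.135).

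At 4 h TNF read 43.6, 41.0 and 40.5 units in siSTAT3 TAM cells and 30.1, 19.5 and 36.6 units in siSTAT3 EtOH cells. It read 24.6, 34.6 and 35.3 units in siNEG TAM cells and 27.2, 26.7 and 13.9 units in siNEG EtOH cells at that time. No TAM or siRNA effect was called at 4 h. TNF was lower at 24 h than at 4 h in siNEG TAM cells (log2 -2.91, adjusted p = 3.78e-05), in siNEG EtOH cells (-1.55, adjusted p = 0.0171) and in siSTAT3 EtOH cells (-2.01, adjusted p = 0.00238). In siSTAT3 TAM cells the same difference was -0.26 (adjusted p = 0.811). The siNEG EtOH call was lost without siNEG EtOH 24 h replicate 2 or 3 or siNEG EtOH 4 h replicate 1 or 2, with log2 changes of -1.28 to -1.49.

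TNFSF10 (TRAIL), the ligand of the apoptosis-inducing receptor encoded by TNFRSF10B, was higher with TAM at 4 h and lower without STAT3 at 4 h. Its main probe set (214329_x_at, gene at chr3:172505508-172523430) read 69.8, 60.5 and 47.9 units in siSTAT3 TAM cells and 28.5, 31.8 and 34.7 units in siSTAT3 EtOH cells at 4 h. Among siNEG cells at 4 h it read 139.6, 107 and 177 units with TAM and 60.5, 80.5 and 71.6 units with EtOH. Within each siRNA the TAM arrays at 4 h lay above the EtOH arrays of that siRNA. Within each treatment the siSTAT3 arrays at 4 h lay below the siNEG arrays of that treatment.

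TAM raised TNFSF10 at 4 h by 1.86-fold in siSTAT3 cells (adjusted p = 0.0310) and 1.97-fold in siNEG cells (adjusted p = 0.00542). STAT3 depletion lowered it 2.36-fold under TAM (log2 change -1.24, SE 0.18, adjusted p = 0.000241) and 2.23-fold under EtOH (log2 change -1.16, SE 0.18, adjusted p = 0.00122). The interaction at 4 h was -0.08 (SE 0.26, adjusted p = 0.975). The siSTAT3 TAM call at 4 h was lost with 32 units added (log2 0.52, adjusted p = 0.114) and without siSTAT3 EtOH 4 h replicate 1, 2 or 3 or siSTAT3 TAM 4 h replicate 1 or 2 (log2 0.77 to 0.96).

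By 24 h TNFSF10 had risen in all 4 settings. It read 152 and 209 units in siSTAT3 TAM cells and 115, 101 and 104 units in siSTAT3 EtOH cells, and 254, 234 and 252 units in siNEG TAM cells and 148, 160.0 and 189 units in siNEG EtOH cells. The change at 24 h against 4 h was 1.60 in siSTAT3 TAM, 1.75 in siSTAT3 EtOH, 0.83 in siNEG TAM and 1.23 in siNEG EtOH cells on the log2 scale, with adjusted p of 0.00347 or less. The TAM effect at 24 h was 0.74 in siSTAT3 cells (adjusted p = 0.0823) and 0.58 in siNEG cells (adjusted p = 0.0482), and the call in siNEG cells was lost with each of 14 of the 23 arrays left out in turn (log2 0.50 to 0.62, adjusted p up to 0.167).

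Probe sets whose names end in _x_at can match other transcripts, and the other probe sets of TNFSF10, 202687_s_at and 202688_at, differed from the main one at some points. Their rise at 24 h against 4 h was called in all 4 settings. At 24 h their TAM effect was called in siSTAT3 cells (log2 0.88 and 0.92) and not in siNEG cells (0.20 and 0.44). The TAM effect at 4 h in siSTAT3 cells, called for the main probe set, was 0.25 and -0.24 for these and was not called. The siRNA difference under TAM at 4 h was called in both (-0.91 and -1.04), but that under EtOH at 4 h was called in neither, with -0.59 (adjusted p = 0.0748) and -0.08 (adjusted p = 0.907). The 202688_at arrays overlapped there, at 46.0, 38.5 and 33.6 units in siSTAT3 EtOH cells and 36.9, 45.8 and 41.8 units in siNEG EtOH cells.

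TNFSF15 (TL1A), a ligand of the death receptor TNFRSF25, was higher in siSTAT3 than in siNEG cells under TAM at 24 h. The main probe set (229242_at, gene at chr9:114784635-114806039) read 241 and 216 units in siSTAT3 TAM cells and 166, 156 and 179.6 units in siSTAT3 EtOH cells at that time. It read 63.8, 91.8 and 90.8 units in siNEG TAM cells and 131, 64.6 and 112 units in siNEG EtOH cells. Under both treatments every siSTAT3 array at 24 h lay above every siNEG array.

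STAT3 depletion raised TNFSF15 2.82-fold under TAM at 24 h (log2 change 1.49, SE 0.28, adjusted p = 0.00148), and the difference under EtOH was 0.77 (SE 0.25, adjusted p = 0.184). The TAM effect was not called in either siRNA setting at either time, and the interaction at 24 h was 0.73 (SE 0.38, adjusted p = 0.414). At 4 h it read 99.4, 119.9 and 103 units in siSTAT3 TAM, 131, 98.6 and 157 units in siSTAT3 EtOH, 78.9, 89.0 and 60.1 units in siNEG TAM and 52.7, 85.4 and 78.1 units in siNEG EtOH cells. Every siSTAT3 array lay above every siNEG array at 4 h too, with differences of 0.51 under TAM (adjusted p = 0.313) and 0.84 under EtOH (adjusted p = 0.0928). The latter passed when only probe sets with at least 100 units in a group were tested (adjusted p = 0.0328). The rise at 24 h against 4 h in siSTAT3 TAM cells (log2 1.09, adjusted p = 0.0183) was lost without siSTAT3 TAM 24 h replicate 2 or 3 or siSTAT3 TAM 4 h replicate 1 (log2 1.01 to 1.17). The other probe set, 221085_at, stayed between 29.8 and 59.1 units and was called in no comparison.

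Among the death receptors, TNFRSF21 (DR6), which can signal to apoptosis and NF-κB, showed a late rise with TAM in siNEG cells that was smaller in siSTAT3 cells. At 24 h the main probe set (218856_at, gene at chr6:47231532-47309905) read 950.1 and 1016 units in siSTAT3 TAM cells and 909, 774 and 715 units in siSTAT3 EtOH cells. In siNEG cells it read 3663, 3877 and 3653 units with TAM and 1251, 1163 and 701 units with EtOH. The siNEG TAM arrays lay above all other arrays of both times, while the siSTAT3 TAM arrays lay within the range of the siNEG EtOH arrays.

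TNFRSF21 rose 3.71-fold with TAM in siNEG cells at 24 h (log2 change 1.89, SE 0.16, adjusted p = 2.67e-07), and in siSTAT3 cells the change was 0.30 (SE 0.18, adjusted p = 0.551). The interaction was -1.59 (SE 0.24, adjusted p = 0.000533), and siSTAT3 against siNEG cells under TAM gave a 3.80-fold lower signal (log2 change -1.92, SE 0.18, adjusted p = 6.88e-07). Under EtOH the siRNA difference at 24 h was -0.34 (adjusted p = 0.429). Without siNEG EtOH 24 h replicate 3, which was lower than the other arrays of its group, this difference was -0.60 and was called (adjusted p = 0.00755), and the TAM effect in siNEG cells was 1.63.

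The probe set 214581_x_at of TNFRSF21 gave the same calls at 24 h. It read 401 and 399 units in siSTAT3 TAM cells and 412, 359 and 315 units in siSTAT3 EtOH cells, and 1801, 1944 and 1710.5 units in siNEG TAM cells and 457, 568 and 364 units in siNEG EtOH cells. Its TAM effect in siNEG cells was 2.00 (adjusted p = 2.22e-08) and its interaction -1.84 (adjusted p = 2.60e-05).

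In the other 3 settings TNFRSF21 fell with time in culture. At 4 h it read 2309, 2009 and 2412 units in siSTAT3 TAM cells, 2566, 2644 and 2754 units in siSTAT3 EtOH cells, 2359, 2535 and 2281 units in siNEG TAM cells and 2229, 2138 and 2279 units in siNEG EtOH cells, with no TAM or siRNA effect called. At 24 h against 4 h it fell in siSTAT3 TAM (log2 -1.19), siSTAT3 EtOH (-1.74) and siNEG EtOH cells (-1.14) and rose in siNEG TAM cells (0.64), with adjusted p of 0.00867 or less. The TAM effect in siNEG cells was larger at 24 h than at 4 h by 1.78 on the log2 scale (SE 0.22, adjusted p = 0.000115). The shares called in that comparison were 3.70% of all probe sets and 9.11% of the genes over 100 units. The rise in siNEG TAM cells did not pass in the second probe set (log2 0.40, adjusted p = 0.0586). Its arrays there lay higher at 24 h (1710.5 to 1944 units) than at 4 h (1321 to 1489 units).

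TNFRSF1A encodes the main receptor of TNF on most cells, and its signal was lower on all 11 siSTAT3 arrays than on any of the 12 siNEG arrays. The main and only probe set (207643_s_at, gene at chr12:6328771-6342076) read 1359 and 1261 units in siSTAT3 TAM cells and 1211, 1320.0 and 1264 units in siSTAT3 EtOH cells at 24 h. In siNEG cells at 24 h it read 2515, 2588 and 2263 units with TAM and 1787, 1649.8 and 1816 units with EtOH. A complete separation in this direction was found for 0.496% of all probe sets and 1.15% of the 11656 genes over 100 units, and TNFRSF1A was the only gene of the 10 with it.

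At 4 h TNFRSF1A read 1177, 1224 and 1146 units in siSTAT3 TAM cells and 1309.9, 1286 and 1379 units in siSTAT3 EtOH cells, and 2030.4, 2234 and 1838 units in siNEG TAM cells and 1777, 1952 and 1763 units in siNEG EtOH cells. STAT3 depletion lowered it 1.87-fold under TAM and 1.38-fold under EtOH at 24 h (adjusted p = 3.08e-06 and 0.00569), and 1.72-fold under TAM and 1.38-fold under EtOH at 4 h (adjusted p = 1.14e-05 and 0.00433). The call under EtOH at 4 h was lost when arrays were centred on their medians (adjusted p = 0.0578). All 4 calls were lost when the compared groups alone were fitted. The adjusted p was then 0.0628 and 0.0705 under TAM and 0.240 and 0.220 under EtOH, at 24 and 4 h. Both EtOH calls were also lost under the methods' limits (p under 1e-04 and a log2 change over 0.5).

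TAM raised TNFRSF1A in siNEG cells at 24 h by 1.40-fold (log2 change 0.49, SE 0.08, adjusted p = 0.000744), and the change in siSTAT3 cells was 0.05 (SE 0.09, adjusted p = 0.914). The call in siNEG cells was lost when the compared groups alone were fitted (adjusted p = 0.0833) and under the methods' limits. The difference between the TAM effects under the 2 siRNAs did not pass (interaction -0.44, SE 0.13, adjusted p = 0.0703), although it did when only probe sets with at least 100 units in a group were tested (adjusted p = 0.0174). At 24 h against 4 h the siNEG TAM cells were higher by 0.27 (adjusted p = 0.0342), a call lost without siNEG TAM 24 h replicate 1 or 2 or siNEG TAM 4 h replicate 1 or 3 (log2 0.20 to 0.28).

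FAS, the receptor of FAS ligand, was not called with TAM and was lower at 24 h than at 4 h in siSTAT3 TAM cells. The main probe set (204780_s_at, gene at chr10:88964050-89017059) read 2117 and 2163 units in siSTAT3 TAM cells at 24 h and 2850.1, 2603 and 3012 units at 4 h, which do not overlap. The change was -0.40 on the log2 scale (SE 0.08, adjusted p = 0.00427), and it was also called in the probe sets 204781_s_at (-0.50), 215719_x_at (-0.39) and 216252_x_at (-0.39). In siNEG TAM cells the arrays at 24 h also lay below all those at 4 h. That change was -0.22 (adjusted p = 0.0532), which passed when arrays were centred on their medians (adjusted p = 0.0100).

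The remaining groups of FAS ranged from 1943 to 2485 units. At 24 h it read 2127, 2268 and 2216 units in siSTAT3 EtOH cells, 2084, 2035 and 1974 units in siNEG TAM cells and 2025, 2025 and 2033 units in siNEG EtOH cells. At 4 h it read 2485, 2479.6 and 2389 units in siSTAT3 EtOH cells, 2348, 2426 and 2321 units in siNEG TAM cells and 1943, 2294 and 2220.4 units in siNEG EtOH cells. The TAM effects of the main probe set ranged from -0.04 in siSTAT3 cells at 24 h to 0.20 in siSTAT3 cells at 4 h, and none was called. Under TAM at 4 h siSTAT3 cells were higher than siNEG cells by 0.25 (adjusted p = 0.0511), which passed in 215719_x_at (0.29, adjusted p = 0.0204) and, for the main probe set, without siSTAT3 TAM 4 h replicate 2 or siNEG EtOH 4 h replicate 1 or 2 (log2 0.25 to 0.31). The probe sets disagreed on siSTAT3 against siNEG under TAM at 24 h, with 0.08 for the main probe set and -0.30 for 204781_s_at (adjusted p = 0.0310).

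TNFRSF10B (DR5), a receptor of TRAIL, was called in no comparison by its main probe set (209295_at, gene at chr8:23020133-23069031). At 24 h it read 5865 and 5992 units in siSTAT3 TAM cells, 5797, 6057 and 5796 units in siSTAT3 EtOH cells, 6283, 6154 and 6111 units in siNEG TAM cells and 5109, 5212 and 5437 units in siNEG EtOH cells. The siNEG TAM arrays lay above all siNEG EtOH arrays at this time, with a change of 0.24 (SE 0.08, adjusted p = 0.0693) that passed when arrays were centred on their medians (adjusted p = 0.0339) or without siNEG EtOH 4 h replicate 2 (adjusted p = 0.0305). At 4 h it read 6582, 6504 and 7218 units in siSTAT3 TAM cells, 6770.2, 6453 and 6627 units in siSTAT3 EtOH cells, 5581, 5545 and 5999.6 units in siNEG TAM cells and 5537, 6937 and 5952 units in siNEG EtOH cells. Among its other 3 probe sets, which were dimmer, 209294_x_at was higher in siNEG EtOH cells at 24 h than at 4 h (0.62, adjusted p = 0.0212), where the main probe set gave -0.22 (adjusted p = 0.106).

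Among the receptors without a death domain, TNFRSF12A (Fn14, the receptor of the cytokine TWEAK) was higher in siSTAT3 cells, most of all under TAM at 24 h. Its single probe set (218368_s_at, gene at chr16:3020368-3022383) read 8440.4 and 10178 units in siSTAT3 TAM cells and 5897, 6222 and 6294 units in siSTAT3 EtOH cells at 24 h. In siNEG cells at that time it read 4245, 4737 and 4319.7 units with TAM and 4490.4, 4646 and 4453 units with EtOH. The siSTAT3 TAM arrays lay above all siSTAT3 EtOH arrays, which lay above all siNEG arrays, and the siNEG TAM and siNEG EtOH arrays overlapped.

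STAT3 depletion raised TNFRSF12A 2.09-fold under TAM (log2 change 1.07, SE 0.08, adjusted p = 1.06e-07) and 1.35-fold under EtOH (log2 change 0.44, SE 0.08, adjusted p = 0.00374) at 24 h. The TAM effect at 24 h was 1.51-fold in siSTAT3 cells (log2 change 0.60, SE 0.08, adjusted p = 0.000742) and -0.03 on the log2 scale in siNEG cells (SE 0.08, adjusted p = 0.875). The interaction was 0.63 (SE 0.11, adjusted p = 0.00266) and stayed between 0.49 and 0.76 with each array left out in turn. Its call was lost when the compared groups alone were fitted (adjusted p = 0.0803). The lower and the higher siSTAT3 TAM 24 h array differed by more than any pair of arrays in the other groups at that time.

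At 4 h the signals of TNFRSF12A were higher and closer together. It read 10639.5, 10627 and 10777 units in siSTAT3 TAM cells, 10575, 10739.7 and 10253 units in siSTAT3 EtOH cells, 8491, 9180.0 and 9021 units in siNEG TAM cells and 8991, 9018 and 9469 units in siNEG EtOH cells. Every siSTAT3 array lay above every siNEG array at 4 h, with a difference of 0.26 under TAM (adjusted p = 0.0430) and 0.20 under EtOH (adjusted p = 0.207). The call under TAM was lost with each of 20 of the 23 arrays left out in turn (log2 0.23 to 0.29, adjusted p up to 0.161).

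TNFRSF12A was lower at 24 h than at 4 h in siSTAT3 EtOH (log2 -0.78), siNEG TAM (-1.01) and siNEG EtOH cells (-1.02), with adjusted p of 2.97e-06 or less. In siSTAT3 TAM cells the difference was -0.20 (adjusted p = 0.150). The TAM effect in siSTAT3 cells was larger at 24 h than at 4 h by 0.57 (SE 0.11, adjusted p = 0.0363). The shares called in that comparison were 0.329% of all probe sets and 0.867% of the genes over 100 units. This call of TNFRSF12A was lost with each of 15 of the 23 arrays left out in turn (log2 0.44 to 0.59).

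CD40, a receptor best known on B cells and also found on epithelial cells, was called in no comparison by its main probe set (35150_at, gene at chr20:46118314-46129858). At 24 h it read 200.3 and 433 units in siSTAT3 TAM cells, 233, 144 and 299 units in siSTAT3 EtOH cells, 254, 203 and 363 units in siNEG TAM cells and 228, 227 and 199 units in siNEG EtOH cells. All 4 groups overlapped, and arrays of 1 group differed by more than the group means did in every group but siNEG EtOH. Over all 8 groups it ranged from 144 to 433 units, with interactions of 0.17 at 24 h (SE 0.44) and 0.54 at 4 h (SE 0.41). Of its other 3 probe sets 205153_s_at was called once, at 24 h against 4 h in siSTAT3 TAM cells (1.13, adjusted p = 0.0264).

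TNFRSF9, a costimulatory receptor of activated T cells, read at most 77.9 units on any array and was called in no comparison by any of its 3 probe sets (main probe set 211786_at, gene at chr1:7915871-7940839). At 4 h it read 4.12, 13.8 and 7.53 units in siSTAT3 TAM cells and 45.7, 48.5 and 40.9 units in siSTAT3 EtOH cells, which did not overlap, but the change of -2.57 had an SE of 0.81 (adjusted p = 0.243). At 24 h its arrays ranged from 6.06 to 77.9 units within siSTAT3 EtOH cells alone.

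**Figure D3:**
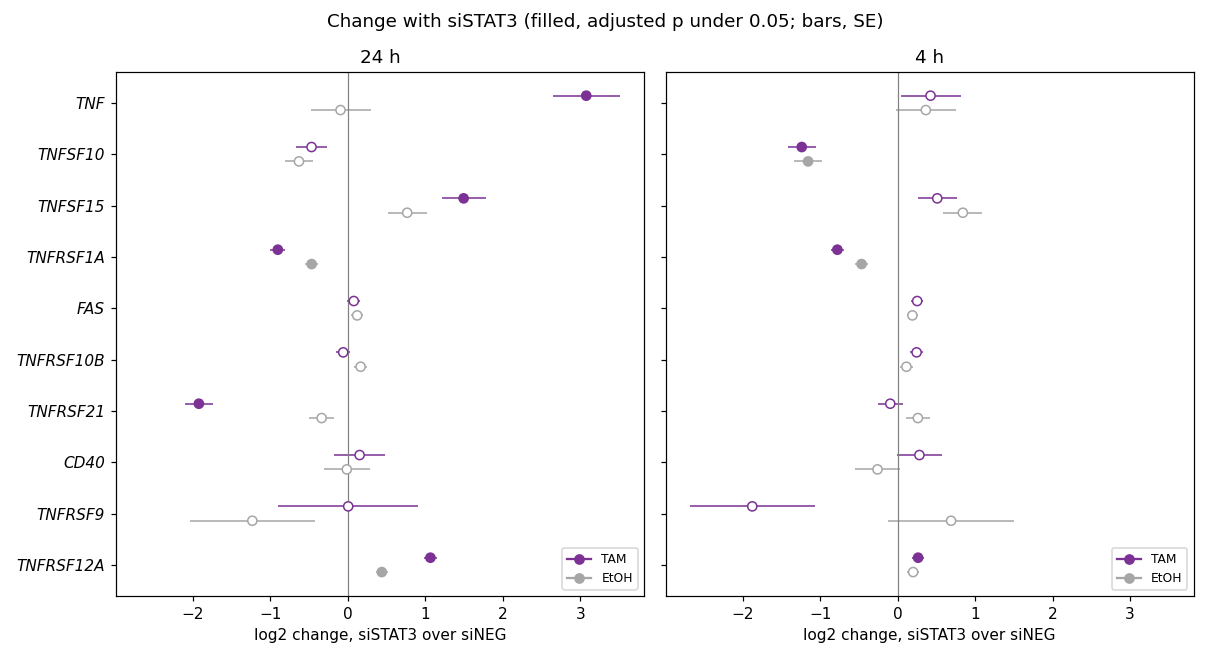
Log2 change of siSTAT3 over siNEG with its SE for the 10 genes under TAM and EtOH, at 24 h on the left and 4 h on the right, filled where the adjusted p was under 0.05. TNFRSF1A is below 0 and filled in all 4 settings, TNFSF10 in both settings at 4 h, and TNFRSF21 under TAM at 24 h.

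Across the siRNA comparisons, STAT3 depletion changed 5 of the 10 genes under TAM at 24 h, with TNF, TNFSF15 and TNFRSF12A higher and TNFRSF1A and TNFRSF21 lower, where 12.0% of all probe sets and 26.4% of the genes over 100 units were called. Under TAM at 4 h TNFRSF12A was higher and TNFSF10 and TNFRSF1A were lower, against 6.77% of all probe sets and 15.1% of the genes over 100 units. In EtOH cells TNFRSF12A was higher and TNFRSF1A lower at 24 h, against 1.96% of all probe sets and 4.73% of the genes over 100 units. At 4 h in EtOH cells TNFSF10 and TNFRSF1A were lower, against 3.18% and 6.98%.

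Culture time changed as many of the genes. At 24 h against 4 h, 5 of 10 were called in siNEG TAM cells, where 16.4% of all probe sets and 34.2% of the genes over 100 units were called, and 4 of 10 in each of siSTAT3 TAM (10.7% of all probe sets and 23.1% of the genes over 100 units), siSTAT3 EtOH (10.1% and 22.0%) and siNEG EtOH cells (9.07% and 20.3%). TNFSF10 rose in all 4 settings, and TNFRSF21 was called in all 4, higher in siNEG TAM cells and lower in the others. TNFSF10, TNFRSF1A and TNFRSF21 had every siNEG TAM 24 h array above every other array, as did 3.69% of all probe sets and 7.97% of the genes over 100 units.

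**Figure D4:**
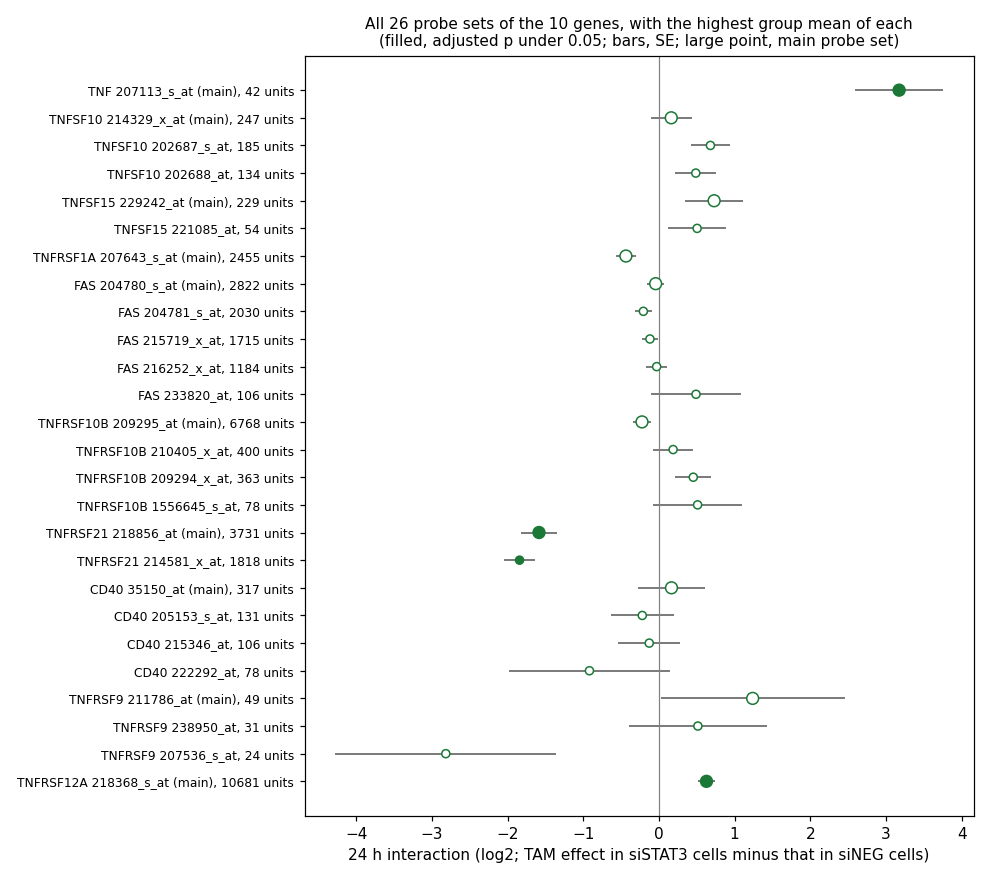
Interaction at 24 h (log2, the TAM effect under siSTAT3 less the one under siNEG) with its SE for all 26 probe sets of the 10 genes, filled where the adjusted p was under 0.05, with the highest group mean of each in its label. Both probe sets of TNFRSF21 lie below -1.5, and the single probe sets of TNF and TNFRSF12A lie above 0.

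The genes with the most similar pattern were found for the 3 genes called in the interaction, by the smallest root mean square difference of the 8 centred group means of log2 signal among genes with a group mean of at least 100 units. For TNFRSF21, whose group means spanned 2.23 on that scale, they were BAMBI (0.30), CD55 (0.33) and C1QTNF1 (0.34) out of 11655 candidates. Those of TNFRSF12A, with a span of 1.27, were AMOTL2 (0.060), GDA (0.087) and PEA15 (0.11). For TNF, with a span of 3.34, the nearest of 11656 genes were IL1B (0.41), ALPK2 (0.42) and CCN1 (0.42). Likeness over 8 group means is a description.

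Other genes of the TNF pathways were taken from 4 lists of 73 genes, 65 of them measured. Only 7 of 13 other ligands and 8 of 21 other receptors reached a mean of 100 units in a group. So did 23 of 26 adaptors, ligases and death machinery genes and all 5 genes of ligand shedding. The shares and the median of the genes over 100 units are thus not matched to the ligand and receptor lists. With TAM at 24 h in siSTAT3 cells, 1 of 13 other ligands, none of 21 other receptors, 3 of 26 adaptors, ligases and death machinery genes and none of 5 genes of ligand shedding rose, and none fell, against the 1.87% and 4.49% given above. In siNEG cells 1 of 13 other ligands rose and 1 fell, 3 of 21 receptors rose, 7 of 26 adaptors, ligases and death machinery genes rose and 3 fell, and 2 of 5 shedding genes fell, against 11.3% and 24.8%. The median log2 changes in siNEG cells were 0.07, 0.27, 0.15 and -0.23 for the lists in that order, 0.12 for the 10 genes and -0.07 for the 11656 genes. In the 24 h interaction 1 of 13 other ligands was called positive and 1 negative, and 2 of 21 receptors were negative. Of 26 adaptors, ligases and death machinery genes 5 were positive and 2 negative, and 1 of 5 shedding genes was positive. The shares called there were 4.06% of all probe sets and 9.69% of the genes over 100 units.

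**Figure D5:**
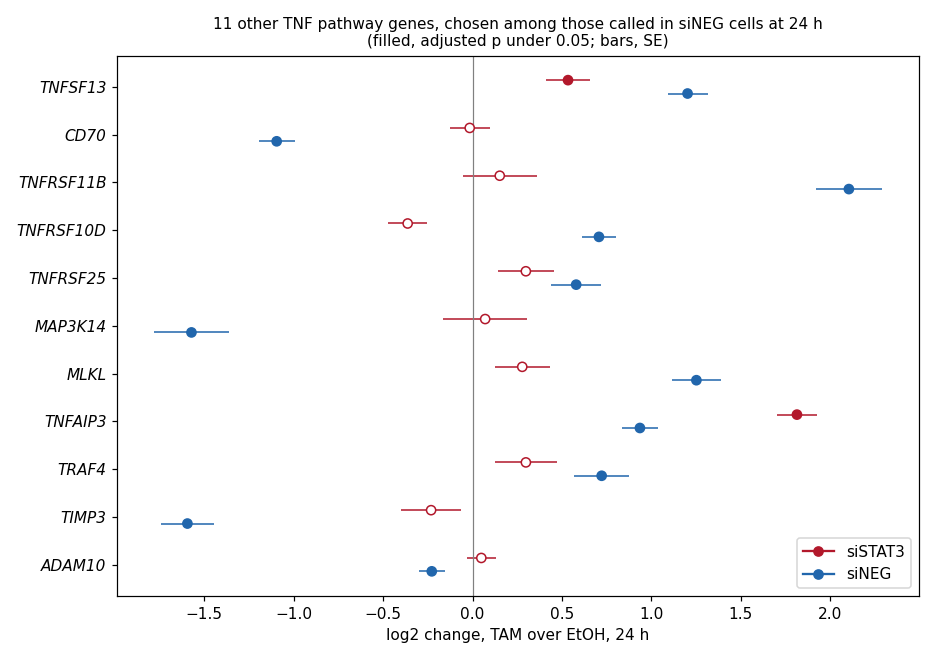
Log2 change of TAM over EtOH at 24 h with its SE in siSTAT3 and siNEG cells for 11 other TNF pathway genes, filled where the adjusted p was under 0.05. The genes were named because they were called in siNEG cells, so that all 11 are filled there by choice, and TNFSF13 and TNFAIP3 are also filled in siSTAT3 cells.

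The 11 pathway genes described next were chosen for a called TAM effect in siNEG cells at 24 h. That choice favours a smaller effect in siSTAT3 cells, so their siNEG effects and interactions are given as a description. Among the other ligands, CD70, which binds CD27 on lymphocytes, fell with TAM in siNEG cells at 24 h. It read 648 and 685 units in siSTAT3 TAM cells and 645, 689 and 689 units in siSTAT3 EtOH cells, and 288, 275 and 316 units in siNEG TAM cells and 627, 598 and 649.7 units in siNEG EtOH cells. Only the siNEG TAM arrays stood apart at 24 h, and the TAM effect was -0.02 in siSTAT3 cells and -1.10 in siNEG cells, with an interaction of 1.08 (SE 0.15, adjusted p = 0.000279). TNFSF13 (APRIL) rose by 0.53 in siSTAT3 and 1.20 in siNEG cells (interaction -0.67, adjusted p = 0.0318), measured by a probe set of the _x_at kind.

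The decoy receptors TNFRSF11B and TNFRSF10D rose with TAM in siNEG cells. TNFRSF11B (osteoprotegerin), a secreted protein that binds RANKL and TRAIL, read 68.9 and 68.1 units in siSTAT3 TAM cells and 70.4, 46.7 and 71.4 units in siSTAT3 EtOH cells, and 338, 312 and 414 units in siNEG TAM cells and 69.4, 85.0 and 93.4 units in siNEG EtOH cells at 24 h. The siNEG TAM arrays lay far above the others, with a TAM effect of 0.15 in siSTAT3 cells and 2.10 in siNEG cells and an interaction of -1.95 (SE 0.28, adjusted p = 0.000332). TNFRSF10D, a decoy receptor of TRAIL on the cell surface, had a TAM effect of -0.36 in siSTAT3 cells (adjusted p = 0.120) and rose by 0.71 in siNEG cells (interaction -1.07, adjusted p = 0.000194). TNFRSF25, the receptor of TNFSF15, rose by 0.58 in siNEG cells (adjusted p = 0.0101) and its interaction was -0.28 (adjusted p = 0.618). It was also measured by a probe set of the _x_at kind.

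Among intracellular genes, MAP3K14 (NIK, the kinase of the alternative NF-κB pathway) fell and MLKL, the effector of necroptosis, rose with TAM in siNEG cells at 24 h. MAP3K14 read 189 and 150.4 units in siSTAT3 TAM cells and 143, 158 and 182 units in siSTAT3 EtOH cells, and 45.7, 60.7 and 32.4 units in siNEG TAM cells, which is below 100 units, and 144, 123 and 133.4 units in siNEG EtOH cells. Its TAM effect was 0.07 in siSTAT3 and -1.57 in siNEG cells (interaction 1.64, adjusted p = 0.00487), and the interaction was 1.15 with 32 units added (adjusted p = 0.00519). MLKL read 1708 and 1975 units in siSTAT3 TAM cells and 1693, 1503 and 1366 units in siSTAT3 EtOH cells, and 4106, 4339.6 and 4352 units in siNEG TAM cells and 1979.6, 1756 and 1652 units in siNEG EtOH cells. The siNEG TAM arrays of MLKL lay above all others at 24 h, and its interaction was -0.97 (adjusted p = 0.00936).

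TNFAIP3 (A20), an NF-κB target that restrains TNF receptor signaling, differed from these genes in that its TAM effect was larger in siSTAT3 cells. At 24 h it read 2537 and 2473 units in siSTAT3 TAM cells and 719, 664 and 757 units in siSTAT3 EtOH cells, and 1641, 1591 and 1531 units in siNEG TAM cells and 901, 764 and 830.0 units in siNEG EtOH cells. It rose by 1.81 in siSTAT3 and 0.94 in siNEG cells (interaction 0.88, SE 0.15, adjusted p = 0.00164). TRAF4, a TRAF family adaptor, rose by 0.72 in siNEG cells (adjusted p = 0.00429), and its interaction was -0.42 (adjusted p = 0.441).

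TIMP3, an inhibitor of the protease ADAM17 that sheds TNF and its receptors, fell with TAM in siNEG cells. At 24 h it read 1597 and 1509 units in siSTAT3 TAM cells and 1762, 1788 and 1922 units in siSTAT3 EtOH cells, and 445, 427 and 306 units in siNEG TAM cells and 1242, 1151 and 1122 units in siNEG EtOH cells. The siNEG TAM arrays lay below all others, and the TAM effect was -0.23 in siSTAT3 cells (adjusted p = 0.671) and -1.59 in siNEG cells (adjusted p = 9.58e-07), with an interaction of 1.36 (SE 0.22, adjusted p = 0.00123). ADAM10, another membrane sheddase, fell in siNEG cells (log2 -0.23, adjusted p = 0.04996), and its interaction was 0.28 (adjusted p = 0.218).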

How the data were processed

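RNA of MCF10A-ER-Src cells had been hybridized to 23 Affymetrix Human Genome U133 Plus 2.0 arrays. The deposited values are intensities on a linear scale, 1 per probe set, which the authors made with the MAS5 algorithm for background and scaling. Their 2% trimmed mean was 500 on every array, the median ranged from 73.5 to 85.3 units, and between 44.6% and 46.9% of probe sets exceeded 100 units. The number of arrays limits the precision.

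Signals were log2 transformed with nothing added and fitted with 1 mean per group over all 23 arrays in limma 3.58.1 (R 4.3.3), with 15 residual and 1.27 prior degrees of freedom. P-values were adjusted by Benjamini-Hochberg over 54675 probe sets in each of 16 comparisons. Errors are standard errors (SE) of log2 changes. The platform annotation gives 1 symbol to 41097 probe sets, several to 1801 and none to 11777. The last 2 kinds represented no gene but stayed in the fit, the adjustment and the shares of all probe sets. MAS5 levels of different probe sets cannot be set against each other. Pathway genes were named by a rule, up to 4 per list with the largest change among those called with TAM at 24 h in siNEG cells and with a group mean of at least 100 units. The genes, lists and rules were chosen with earlier results of these data known. Alternatives were 32 units added, a filter at 100 units, quantile normalization, median centring, a replicate block, a fit of the compared groups alone, an intensity trend with robust prior, the methods' limits (p under 1e-04 and a log2 change over 0.5), and each array left out in turn.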

Additional observations from a re-analysis of the deposited data

Results flagged for a closer look

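In 5 results the response to TAM differed between siRNAs or times by a test of the difference itself. The interaction at 24 h (the TAM effect under siSTAT3 less the one under siNEG) was 3.17 for TNF (adjusted p = 0.00316, limma, at signals below 100 units, and 0.90 with 32 units added), 0.63 for TNFRSF12A (adjusted p = 0.00266) and -1.59 for TNFRSF21 (adjusted p = 0.000533). The TAM effect at 24 h exceeded that at 4 h by 1.78 for TNFRSF21 in siNEG cells (adjusted p = 0.000115) and by 0.57 for TNFRSF12A in siSTAT3 cells (adjusted p = 0.0363). All values are on the log2 scale. The interaction calls of TNF and TNFRSF12A were lost when the compared groups alone were fitted (adjusted p = 0.0543 and 0.0803). The call of TNFRSF12A in siSTAT3 cells was lost with each of 15 of the 23 arrays left out, with the arrays centred on their medians (adjusted p = 0.101), with the replicate block (0.0692) and with the compared groups alone (0.352). The 3 interactions and the TNFRSF12A difference between times rest on 2 arrays of siSTAT3 TAM 24 h cells, where the 3′ to 5′ ratio of ACTB was 1.21. The TNFRSF12A difference between times also uses the siSTAT3 TAM 4 h arrays, 1 of which had that ratio. The part of the ratio in these results was not tested.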

How the results depend on the processing

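Of 4928 values of the 10 genes under the alternatives (16 comparisons, with each array left out included), 4768 kept their direction and their side of the threshold, 120 no longer passed, 40 newly passed and none reversed. The low signals of TNF and TNFRSF9, below 100 units, limit what can be said of them. The number of genes called moved most when only the compared groups were fitted, which leaves few arrays to estimate the spread. The counts were then 0 and 0 of 10 for TAM in siSTAT3 cells at 24 and 4 h, 1 and 0 for TAM in siNEG cells at 24 and 4 h, 1 and 0 for siSTAT3 against siNEG under TAM at 24 and 4 h and 0 and 0 under EtOH, 1 for the interaction at 24 h, 0, 3 and 1 at 24 h against 4 h in siSTAT3 TAM, siNEG TAM and siNEG EtOH cells, and 0 for the TAM effect in siSTAT3 cells at 24 h minus that at 4 h. TNF also lost its call at 24 h against 4 h in siSTAT3 EtOH cells (adjusted p = 0.0625).

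With 32 units added the count for TAM in siSTAT3 cells at 4 h was 0. With the filter at 100 units, and likewise with the intensity trend and robust prior, siSTAT3 against siNEG under TAM at 4 h had 5 and the TAM effect in siNEG cells at 24 h minus that at 4 h had 2. Median centring gave 1 for siSTAT3 against siNEG under EtOH at 4 h and 0 for the TAM effect in siSTAT3 cells at 24 h minus that at 4 h. With it TNFRSF10B newly passed with TAM in siNEG cells at 24 h (adjusted p = 0.0339). TNFRSF10B also passed at 24 h against 4 h in siSTAT3 EtOH cells (0.0383). TNFRSF12A lost its siRNA call under TAM at 4 h (0.157). The methods' limits gave 0 for TAM in siSTAT3 cells at 4 h, 1 for TAM in siNEG cells at 24 h, 0 and 1 for siSTAT3 against siNEG under EtOH at 24 and 4 h, 2 and 2 at 24 h against 4 h in siSTAT3 TAM and siNEG TAM cells, and 0 for the TAM effect in siSTAT3 cells at 24 h minus that at 4 h. These lists do not give every count that moved, and the cause of the shifts was not tested.

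The replicate numbers were not taken as pairs, because no label ties them to a shared culture or day and of 77 pairs of samples with the same number only 16 had deviations that correlated over 0.1. The median correlation was 0.0363 over the 77 pairs and -0.0244 over other pairs, and 17 of 23 arrays were closer to their own number, which hints at some sharing. With the replicate block the counts were 2 for TAM in siNEG cells at 24 h, 2 for siSTAT3 against siNEG under TAM at 4 h and 0 for the TAM effect in siSTAT3 cells at 24 h minus that at 4 h, and the others did not move. The calls lost with it were TNFSF10 with TAM in siNEG cells at 24 h (adjusted p = 0.0551) and TNFRSF12A under TAM at 4 h (0.0533) and in the TAM effect at 24 h minus that at 4 h (0.0692). With 32 units added, chosen for them after seeing the data, the 11 pathway genes kept their calls with TAM and in the interaction at 24 h. With each array left out in turn, the counts ranged from 1 to 3 and 0 to 1 for TAM in siSTAT3 cells at 24 and 4 h, 2 to 4 for TAM in siNEG cells at 24 h, 2 to 4 and 2 to 3 for siSTAT3 against siNEG under TAM at 4 h and under EtOH at either time, 3 to 4 for the interaction at 24 h, 3 to 4 at 24 h against 4 h in siSTAT3 TAM cells and in siNEG EtOH cells, 4 to 6 in siNEG TAM cells, and 0 to 1 for the TAM effect in siSTAT3 cells at 24 h minus that at 4 h. The other counts stayed constant.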

Other observations

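Of the 65 other genes of the TNF lists, 4 were called at 24 h against 4 h in all 4 settings in 1 direction, a pattern chosen after the values were seen. It held for 3.34% of all probe sets and 8.46% of the genes over 100 units, so the 4 genes are a description. TNFAIP3 was lower at 24 h than at 4 h in siSTAT3 TAM (-1.84 on the log2 scale), siSTAT3 EtOH (-2.43), siNEG TAM (-1.42) and siNEG EtOH cells (-1.45). TNFRSF10A, a receptor of TRAIL, was also lower at 24 h, with -0.57 in siSTAT3 TAM, -0.61 in siSTAT3 EtOH, -0.53 in siNEG TAM and -0.53 in siNEG EtOH cells. RBCK1, a subunit of the linear ubiquitin ligase that acts at TNF receptors, was higher at 24 h, with 0.65 in siSTAT3 TAM, 0.36 in siSTAT3 EtOH, 0.45 in siNEG TAM and 0.51 in siNEG EtOH cells. MAP3K5 (ASK1), a stress kinase, was also higher at 24 h, with 0.43 in siSTAT3 TAM, 0.44 in siSTAT3 EtOH, 1.05 in siNEG TAM and 0.37 in siNEG EtOH cells.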
